A study of Mus musculus with 12 samples.

Results

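Hnf4a, Foxa1, Foxa2, Foxa3, Cebpa, Onecut1, Nr5a2, Nr1i2 and Nr1i3 are 9 transcription factor genes by which adult liver is commonly recognised. They were picked by gene symbol and make up 9 of the 55450 genes in the count table. The libraries came from a study of Vaultrc5, the gene for a short non-coding vault RNA, in which total RNA depleted of ribosomal RNA was sequenced from brain and liver of mice with and without that gene. There were 4 groups of 3 libraries, all from male mice aged 7 to 9 weeks: wild-type brain, knockout brain, wild-type liver and knockout liver. The genotype is given as Vaultrc5+/+ or Vaultrc5-/-. Control titles read flx, a term the labels do not explain, and no other allele and no treatment is named for either genotype. Libraries are named here by group and by the replicate number in the title. The labels do not say that equal numbers in brain and liver mark a shared animal, nor that the libraries of a group are separate animals, so p-values measure the spread between these libraries, which may in part be technical.

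The 9 proteins belong to 4 families. The forkhead factors encoded by Foxa1, Foxa2 and Foxa3 bind nucleosome-covered DNA early in liver development and open it for other factors. HNF4A, the orphan nuclear receptor of Hnf4a, drives much of the hepatocyte programme, including apolipoprotein and clotting factor genes, and NR5A2 (LRH-1) controls bile acid and cholesterol genes. Nr1i2 and Nr1i3 encode PXR and CAR, nuclear receptors that sense foreign compounds and steroids and switch on cytochrome P450 and transporter genes. Cebpa encodes a leucine zipper factor needed for gluconeogenesis and urea cycle genes, and Onecut1 encodes HNF6, a cut-homeodomain factor of hepatocytes and bile duct cells.

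The promoters of Onecut1, Foxa1, Foxa2 and Cebpa are shown because these genes gave the largest spread between liver libraries, the replicate pattern or the genotype contrast described further on. Each is the stretch before the transcription start from RefSeq on GRCm38.p6, written 5′ to 3′ in the direction of the gene, and capitals mark matches to the searched motifs on either strand.
Onecut1: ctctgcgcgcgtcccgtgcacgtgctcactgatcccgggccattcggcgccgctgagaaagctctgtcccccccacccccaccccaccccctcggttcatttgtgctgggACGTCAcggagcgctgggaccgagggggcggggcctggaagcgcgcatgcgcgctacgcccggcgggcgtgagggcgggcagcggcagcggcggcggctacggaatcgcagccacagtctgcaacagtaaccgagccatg
Foxa1: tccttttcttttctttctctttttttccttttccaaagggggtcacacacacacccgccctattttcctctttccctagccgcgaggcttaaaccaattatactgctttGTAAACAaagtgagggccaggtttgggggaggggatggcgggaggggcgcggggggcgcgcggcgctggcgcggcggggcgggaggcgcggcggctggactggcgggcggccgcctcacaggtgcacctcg
Foxa2: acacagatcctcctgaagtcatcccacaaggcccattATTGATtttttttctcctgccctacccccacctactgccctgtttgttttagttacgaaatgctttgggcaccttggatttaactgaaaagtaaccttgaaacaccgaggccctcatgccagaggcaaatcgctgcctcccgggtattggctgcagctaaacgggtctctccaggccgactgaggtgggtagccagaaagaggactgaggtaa
Cebpa: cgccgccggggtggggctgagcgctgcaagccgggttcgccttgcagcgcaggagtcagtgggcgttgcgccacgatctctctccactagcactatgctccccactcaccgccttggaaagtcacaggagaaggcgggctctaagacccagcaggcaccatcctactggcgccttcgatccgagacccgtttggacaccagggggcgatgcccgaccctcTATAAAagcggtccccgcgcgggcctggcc
Onecut1 is the 250 bases at chr9:74861671-74861920 on the plus strand. Foxa1 is 240 bases at chr12:57546122-57546361 on the minus strand, with 10 bases that an exon covers left out. Foxa2 is the window of the outermost of its 3 starts, 250 bases at chr2:148046970-148047219 on the minus strand, and Cebpa is 250 bases at chr7:35119043-35119292 on the plus strand.

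The motif search covered the ONECUT core ATCAAT, the forkhead core TGTTTNC, the C/EBP motif TTGCNNAA, the cAMP response core TGACGT, the nuclear receptor core AGGTCA and the TATA box TATAAA, on both strands. Over 32851 promoter windows of 250 bases, these were present in 6.72%, 17.8%, 9.56%, 6.47%, 14.0% and 12.4%, so each match is a common event. All 9 genes had a promoter entry. The Onecut1 window held TGACGT 140 bases before the start, the Foxa1 window held TGTTTNC at 141 bases, and the Foxa2 window held ATCAAT at 213 bases. Cebpa had a TATA box 30 bases and Foxa3 one 36 bases before the start. Hnf4a held ATCAAT at 59 and TGTTTNC at 238 bases, Nr1i2 held TGTTTNC at 164 and 191 bases, and Nr1i3 held it at 215 bases. Nr5a2 held AGGTCA at 64 and TATAAA at 181 bases before its outer start. The matches describe these windows and say nothing of binding.

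Brain libraries held 14844971 to 18567381 counts, and liver libraries, which were deeper, 23247449 to 27155480. Levels are in CPM (counts scaled to a common library size), and the floor used here, 3 counts, was 0.165 to 0.198 CPM for brain libraries and 0.110 to 0.127 CPM for those of liver. The targeted gene Vaultrc5 had 33, 39 and 48 counts in wild-type liver, 4, 1 and 4 in wild-type brain and 0 in all 6 knockout libraries. Hepatocyte markers summed to at least 41307 CPM in every liver and neuron markers to at least 3807 CPM in every brain, as labelled. Knockout brain 3 stood apart: all 8 pancreatic acinar markers were present and took 125016 counts, 0.749% of the library, against 6 to 17 counts in the other brains and 0 to 40 in the livers. The brain values that it changes are given with and without it. Knockout liver 2 had the highest summed Kupffer cell markers of the livers, 275 CPM against 106 to 146 in the other 5, and the highest Spp1, a bile duct marker, at 102 CPM against 18.6 to 27.6.

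In wild-type brain, Hnf4a, Foxa1, Foxa2, Foxa3 and Nr1i2 had 0 counts in all 3 libraries. Onecut1 had 5, 3 and 5 counts, Nr5a2 had 1, 2 and 2, and Nr1i3 had 3, 0 and 5, all within a few counts of the floor. Cebpa was the exception, with 76, 120 and 75 counts in wild-type brain and 55, 103 and 116 in knockout brain. In liver the counts ran from 310 for Foxa2 in knockout liver 3 to 15851 for Hnf4a in wild-type liver 3. The 2 tissues did not overlap for any of the 9 genes. The share of all genes without such overlap was not computed. Of 18850 genes tested, 78.6% had an edgeR adjusted p under 0.05 between the wild-type tissues, so a difference between tissues is common.

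**Figure D1:**
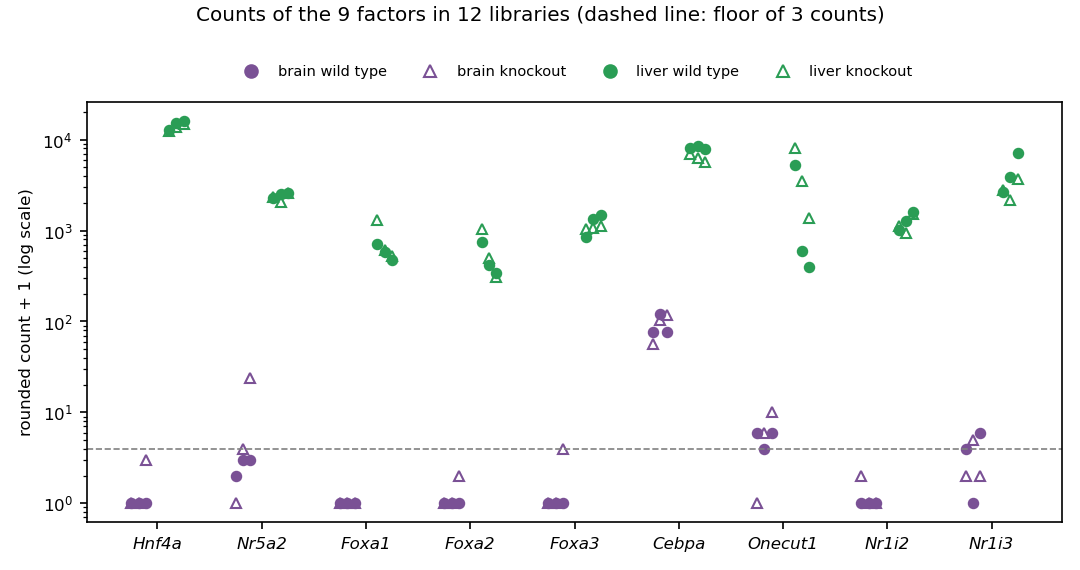
Rounded counts plus 1 (log scale) of the 9 factors in each of the 12 libraries, by tissue (colour) and genotype (filled or open), with a dashed line at 3 counts. Liver points lie above all brain points for each gene, Cebpa is the gene well above the line in every brain, and the open brain point of Nr5a2 at 23 counts is knockout brain 3.

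Against the brain floor, Hnf4a was at least 3297-fold higher in wild-type liver, Foxa3 at least 276-fold, Foxa1 at least 133-fold and Foxa2 at least 115-fold. The xenobiotic receptor gene Nr1i2 was at least 295-fold higher. For genes with counts in brain, the ratio of pooled counts was 61.9 (95% counting interval 54.95 to 70.08) for Cebpa, 329 (192 to 619) for Onecut1, 1008 (432 to 3105) for Nr5a2 and 1157 (587 to 2681) for Nr1i3. Intervals and floors cover counting error only, and these ratios use CPM scaled within each tissue. The edgeR fit, scaled over both tissues, gave larger folds of 113 for Cebpa, 608 for Onecut1, 1686 for Nr5a2 and 1979 for Nr1i3. The Onecut1 ratio rested on wild-type liver 1: without that library it was 74.9 (43.6 to 141), an interval that overlaps that of Cebpa, at 60.3 (53.5 to 68.2). In bulk tissue, fewer cells of a type and less RNA per cell cannot be told apart.

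All 9 genes were called higher in wild-type liver than in wild-type brain by the edgeR quasi-likelihood test (Benjamini-Hochberg adjusted p from 6.62e-08 for Nr5a2 to 0.00102 for Onecut1). Of the 18850 genes tested, 34.7% were called higher and 43.9% lower in liver, so a call for liver is in itself common. All 9 were also called between knockout liver and knockout brain, with and without knockout brain 3, where 35.2% of genes were called higher with it. The tested genes of the wider liver programme went the same way in the wild type: 22 of 22 other liver factors, 18 of 18 HNF4A targets, 8 of 8 NR5A2 targets and 11 of 11 targets shared by FOXA and C/EBP factors were called higher. Of 22 tested CAR and PXR targets, 19 were called higher and 2 lower. The 2 lower ones were Abcb1a, a drug efflux pump of the blood-brain barrier (log2 fold change -2.55 ± 0.24 SE, edgeR adjusted p = 3.2e-05), and the stress gene Gadd45b (-2.89 ± 0.37, adjusted p = 0.000197). The organic anion transporter gene Slco1a4 was not called (0.57 ± 0.28, edgeR adjusted p = 0.0925), where its counts relative to the library were 43.8 to 47.1 CPM in wild-type brain and 20.8 to 46.9 CPM in wild-type liver. Those CPM were scaled within each tissue and the fold change over both tissues together, so the 2 differ in sign, and no direction is read for this gene.

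Several of the few counts of these genes in knockout brain lay in the library with acinar RNA. Knockout brain 3 held 23 of the 26 Nr5a2 counts, both Hnf4a counts, the single Foxa2 count, the 3 Foxa3 counts and 9 of the 14 Onecut1 counts of its group. It held none of the Nr1i2 counts, of which knockout brain 1 had 1, and 1 of the 6 Nr1i3 counts. It also had 24 counts of Gata4, at 0 in the other 5 brains, and 12 of Gata6, at 1 to 3 in the others. NR5A2 is a factor of the exocrine pancreas as well as of liver. The part of the acinar RNA in these counts was not tested. With this library, knockout liver exceeded knockout brain in Nr5a2 179-fold (122 to 274); without it the ratio was 1025 (350 to 4969), beside 1008 in the wild type. Foxa1 had 0 counts in all 6 brains. Foxa1 and Foxa2 are also factors of midbrain dopamine neurons, and the 6 markers of those cells summed to 27 to 246 counts in brain. The dopamine synthesis gene Th had 5 to 42 counts, Slc6a3 had 1 to 8 and Pitx3 had 0 to 4. The sum of 246, in wild-type brain 3, held 107 counts of Slc18a2 and 71 of Lmx1b. Whether such cells were sampled was not tested.

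Per kilobase of exon, the highest levels in wild-type liver were those of Cebpa, at 122 ± 6.30 CPM per kb (SD, n = 3), and Hnf4a, at 118 ± 8.61, whose library ranges overlapped. They ranked 286 and 296 among 23896 genes with a count. A gap followed, then 5 genes whose neighbouring ranges overlapped: Nr1i3 at 40.0 ± 19.5 CPM per kb, Foxa3 at 23.4 ± 5.60, Onecut1 at 21.1 ± 28.7, Nr1i2 at 19.9 ± 4.04 and Nr5a2 at 16.4 ± 0.696. The length of a gene here is that of all its annotated exons merged, and the order depends on it. For Nr1i3 it was 4414 nt, of which 3304 nt overlap Tomm40l, and a shorter length would raise its level. Whether the gap above Nr1i3 holds at another length was not tested. Foxa2 at 8.38 ± 4.11 and Foxa1 at 6.92 ± 1.72 CPM per kb came last, overlapping each other and lying below all Nr5a2 libraries. The place of Onecut1 rested on wild-type liver 1, since the other 2 libraries, at 5.31 and 3.72 CPM per kb, lay below every Foxa1 and Foxa2 library. In knockout liver Hnf4a, at 117 ± 17.1, and Cebpa, at 97.8 ± 4.75 CPM per kb, again had overlapping ranges. Onecut1 was the next, at 42.1 ± 31.3 CPM per kb, overlapping Nr1i3 at 26.9 ± 7.51. That place rested on knockout liver 1, at 75.9 CPM per kb, since the other 2 libraries averaged 25.2. The forkhead gene with the highest level was Foxa3 in both genotypes.

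Whether loss of the vault RNA altered these factors was asked by setting knockout against wild-type liver. None of the 9 genes was called, and neither was any of the 15329 genes tested (0% at an edgeR adjusted p under 0.05). The deleted gene itself, Vaultrc5, was not called by this test (adjusted p = 0.333) although its counts did not overlap, which bears on how little a lack of calls can show here. At an unadjusted p under 0.05, 536 genes or 3.5% passed, among them 1 of the 9 factors, Cebpa; without knockout liver 3 the number was 1136 of 15722. Over the 9, 3 fold changes were positive and 6 negative, with a median log2 fold change of -0.01 beside 0.01 for all genes tested. That tally was not stable, with 7 positive without wild-type liver 3 and 5 without knockout liver 1 or knockout liver 2. Their edgeR adjusted p-values all lay between 0.992 and 0.999. DESeq2 called 10 genes, none of them among the 9.

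**Figure D2:**
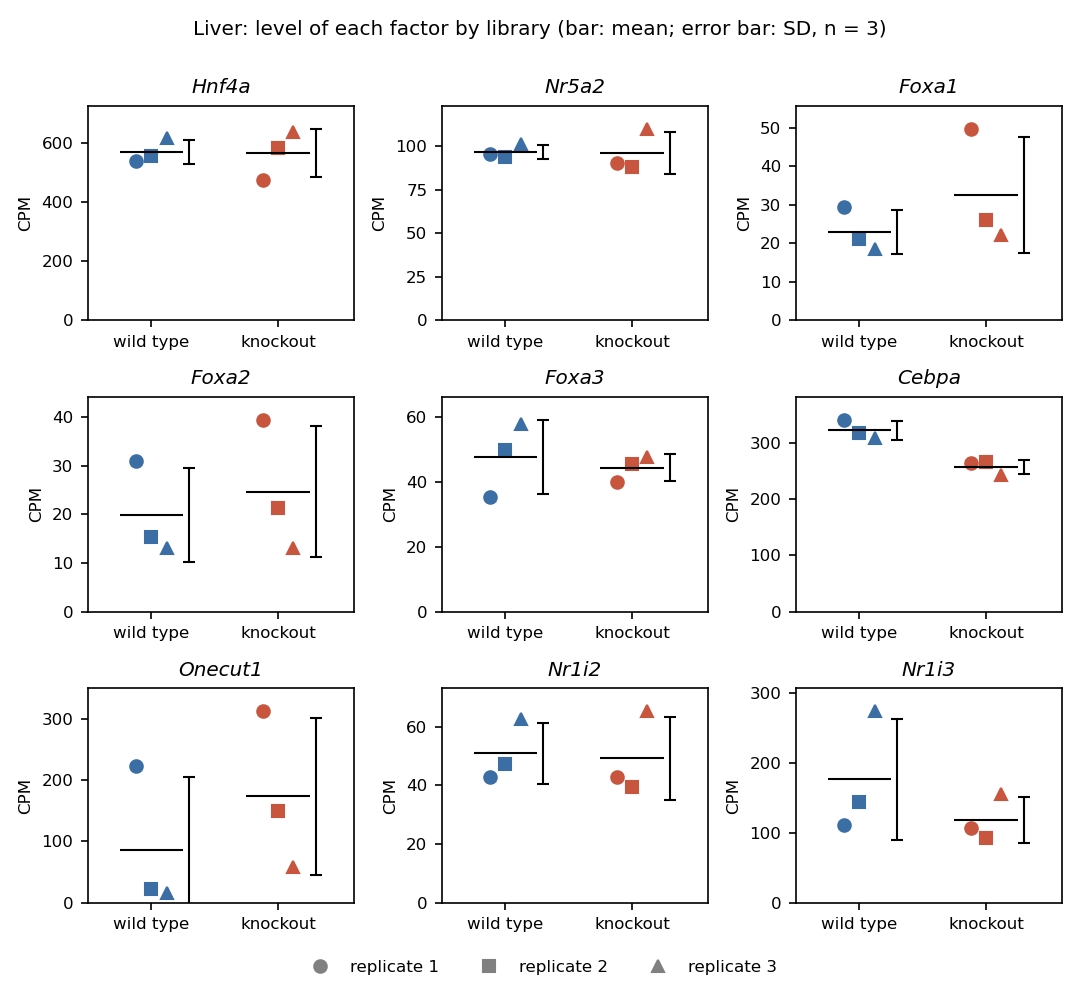
CPM of each factor in the 6 liver libraries, with the group mean (bar) and SD (n = 3) and a marker shape for the replicate number; each panel has its own axis from 0, and the lower error bar of wild-type Onecut1 is cut at 0. Cebpa is the gene whose groups do not overlap, and circles (replicate 1) are the highest points for Foxa1, Foxa2 and Onecut1.

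Cebpa (ENSMUSG00000034957.10, a single exon at chr7:35119293-35121928, plus strand) had 340.9, 317.3 and 308.9 CPM in wild-type liver and 263.6, 266.1 and 243.3 CPM in knockout liver. Every knockout library lay below every wild-type one, and the spread within groups was small: the within-group SD of log2 CPM was 0.07, lower than that of most genes (8.30% were lower still). Among all genes tested, 5.14% had knockout ranges wholly below the wild type and 4.71% wholly above, so such a separation was not rare. The log2 fold change was -0.32 ± 0.10 SE (edgeR adjusted p = 0.992), and it stayed between -0.35 and -0.28 with any library left out. The difference within each replicate number was -0.37, -0.25 and -0.34. Of 6 hepatocyte markers, 5 were also lower in the knockout, none of them called, with a median log2 fold change of -0.18. Their summed levels overlapped between the genotypes, at 64408, 51818 and 66914 summed CPM in wild-type liver against 52510, 41307 and 69419 in knockout liver, and their part in the Cebpa values was not tested. An antisense gene, Gm45091, overlaps 51 nt of the Cebpa exon and had 13 to 32 counts in liver.

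Hnf4a (ENSMUSG00000017950.16, chr2:163506808-163572910, plus strand) had 537.2, 554.7 and 616.3 CPM in wild-type liver and 476.3, 581.6 and 638.5 CPM in knockout liver. The knockout range held the whole wild-type range, and the log2 fold change was -0.01 ± 0.14. Nr5a2 (ENSMUSG00000026398.14, chr1:136842571-136960448, minus strand) had 95.2, 93.4 and 101.3 CPM in the wild type and 90.1, 87.7 and 109.8 CPM in the knockout, again with the wild type inside the knockout range and a log2 fold change of -0.01 ± 0.11. The highest-to-lowest ratio over the 6 livers was 1.34 for Hnf4a and 1.25 for Nr5a2, the lowest of the 9, followed by 1.40 for Cebpa.

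Both receptors for foreign compounds overlapped between the genotypes. Nr1i2, for PXR (ENSMUSG00000022809.4, chr16:38248323-38294824, minus strand), had 42.8, 47.4 and 62.5 CPM in the wild type and 42.9, 39.5 and 65.3 CPM in the knockout. The log2 fold change was -0.05 ± 0.23. Nr1i3, for CAR (ENSMUSG00000005677.14, chr1:171213970-171220701, plus strand), had 111.8, 143.7 and 274.1 CPM in the wild type and 107.5, 92.3 and 155.8 CPM in the knockout. Replicate 3 was the highest library of each genotype for both receptors. The Nr1i3 fold change was -0.57 ± 0.38 on the log2 scale (edgeR adjusted p = 0.992) and -0.11 without wild-type liver 3. The latter fit keeps the same-numbered partner, knockout liver 3, itself the highest knockout library for Nr1i3. Between same-numbered libraries the knockout differed from the wild type in Nr1i3 by -0.06, -0.64 and -0.81 on the log2 CPM scale. Exons of Tomm40l on the other strand overlap Nr1i3 by 3304 nt. Tomm40l had 94 to 196 counts in the livers and 473 to 562 in the brains, and whether the 2 genes share reads was not tested.

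Of the forkhead genes, Foxa1 and Foxa2 were high in other libraries than Foxa3. Foxa1 (ENSMUSG00000035451.7, chr12:57540628-57546916, minus strand) had 29.5, 21.1 and 18.5 CPM in wild-type liver and 49.7, 26.0 and 22.0 CPM in knockout liver. Foxa2 (ENSMUSG00000037025.11, chr2:148042877-148046969, minus strand) had 31.0, 15.3 and 13.2 CPM in the wild type and 39.4, 21.4 and 13.2 CPM in the knockout. In both genes replicate 1 was the highest and replicate 3 the lowest library of each genotype, and the groups overlapped. Foxa3 (ENSMUSG00000040891.6, chr7:19013284-19023538, minus strand) had 35.3, 49.9 and 57.8 CPM in the wild type and 39.9, 45.6 and 47.7 CPM in the knockout, with replicate 1 the lowest of each. The log2 fold changes were 0.50 ± 0.36 for Foxa1, 0.32 ± 0.52 for Foxa2 and -0.10 ± 0.18 for Foxa3. Between same-numbered libraries the knockout differed from the wild type by 0.75, 0.30 and 0.25 on the log2 CPM scale for Foxa1, by 0.34, 0.48 and -0.0026 for Foxa2 and by 0.18, -0.13 and -0.28 for Foxa3. Without knockout liver 1 the fold changes were 0.06, -0.20 and -0.03, in a fit that keeps its same-numbered partner, wild-type liver 1, itself the highest wild-type library for Foxa1 and Foxa2.

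Onecut1 (ENSMUSG00000043013.10, chr9:74861921-74891781, plus strand) was the most variable of the 9. It had 222.7, 21.9 and 15.3 CPM in wild-type liver and 312.1, 149.3 and 58.4 CPM in knockout liver, a highest-to-lowest ratio of 20.4. Replicate 1 was far above the other wild-type libraries, and the groups overlapped. The within-group SD of log2 CPM was 1.71, above that of 99.4% of genes tested, for which the median was 0.20. The log2 fold change was 1.00 ± 1.28 (edgeR adjusted p = 0.992), and leaving out single libraries gave 0.26 to 3.22, the highest without wild-type liver 1. Within replicate numbers, the knockout exceeded the wild type by 0.49, 2.77 and 1.93 on the log2 scale. The long non-coding gene Gm20649 shares 2171 nt of exon with Onecut1 on the same strand, and the reads between them may be split. Summed over both genes, the levels were 222.7, 21.9 and 17.9 CPM in the wild type and 312, 154 and 59.1 CPM in the knockout, so the order of the libraries was the same. Bile duct cells also express Onecut1, and their 6 markers did not have the same highest library. Spp1, Sox9 and Cftr were highest in knockout liver 2, whereas Krt19 (5.36 CPM against 0.934 to 1.44 in the other 5), Krt7 (1.68 against 0.509 to 1.14) and Epcam (1.53 against 0.629 to 1.21) were highest in knockout liver 1, which also had the most Onecut1. None of the 6 was highest in wild-type liver 1. Their part in the Onecut1 levels was not tested.

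In liver the replicate numbers were treated as pairs (same-numbered libraries of the 2 genotypes deviated together), and with the replicate number as a block the SE was smaller for each of the 9. Log2 fold changes were then 0.44 ± 0.11 for Foxa1 (edgeR adjusted p = 0.711), 0.28 ± 0.11 for Foxa2 (adjusted p = 0.765), -0.32 ± 0.10 for Cebpa (adjusted p = 0.734), 1.72 ± 0.63 for Onecut1 (adjusted p = 0.803) and -0.50 ± 0.15 for Nr1i3 (adjusted p = 0.745). Before adjustment 4 of the 9, all but Onecut1 of those just named, had a p under 0.05, where 6.41% of all genes did, and none was called. The pairing was chosen from these same counts, so the smaller SE and these p-values are not independent of that choice. The Onecut1 estimate moved by more than 1.5 times between the 2 fits.

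**Figure D3:**
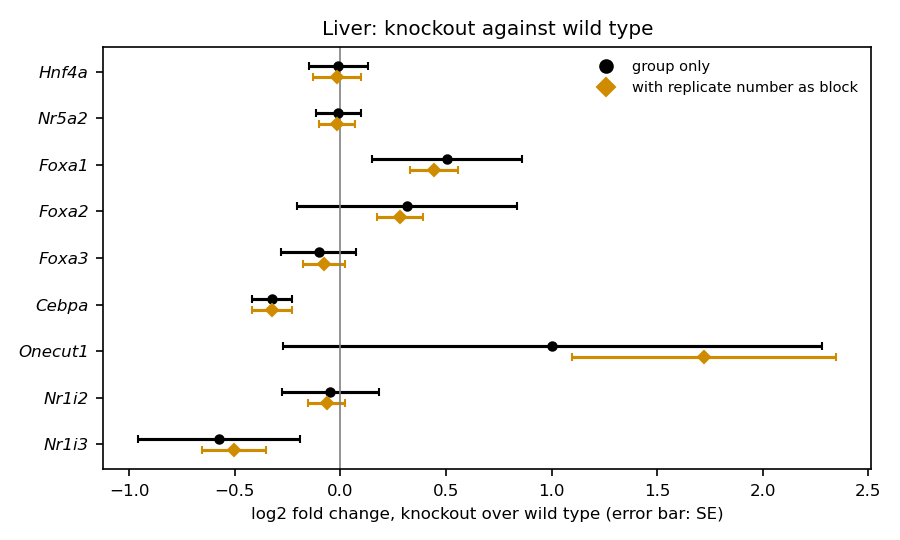
Log2 fold change of knockout over wild-type liver for each factor, with its SE, from the edgeR fits without (black) and with (orange) the replicate number as a block; the vertical line marks no difference. Error bars are narrower with the block, by little for Cebpa, and that of Onecut1 is the widest in both fits.

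The replicate number itself was examined as a further contrast, chosen after the data were seen. In the fit with genotype and number, an F-test of the number over all 15329 genes called 157, or 1.02%, and 12.9% had an unadjusted p under 0.05. Of the 9 factors, 2 were called: Foxa2 (edgeR adjusted p = 0.0174) and Foxa1 (adjusted p = 0.0484). The unadjusted p was also under 0.05 for Nr1i2 (edgeR adjusted p = 0.0779), Nr1i3 (adjusted p = 0.122) and Foxa3 (adjusted p = 0.235), and not for Onecut1 (adjusted p = 0.407). The calls were not stable: Foxa1 was lost with any library left out (adjusted p = 0.0679 to 0.261), and Foxa2 was lost without wild-type liver 1 (0.129), knockout liver 1 (0.157) or knockout liver 3 (0.0584). The likelihood ratio test of DESeq2 called 525 genes and 5 of the 9 factors. Among the target lists, the gluconeogenic gene Pck1 was called (edgeR adjusted p = 0.0261), with 772, 1873 and 2028 CPM in wild-type liver and 866, 1994 and 2109 CPM in knockout liver, lowest in replicate 1 of each. The CAR and PXR target Cyp2c55 was called as well (edgeR adjusted p = 0.0484), with 14.6, 6.55 and 9.33 CPM in the wild type and 12.5, 4.37 and 9.85 CPM in the knockout. Kupffer cell markers, at 106, 142 and 125 summed CPM in wild-type liver against 146, 275 and 118 in knockout liver, did not have replicate 1 at the same end in the 2 genotypes, though 3 of the 6 had an unadjusted p under 0.05. Of 5 sinusoidal endothelial markers 2 did, and Lyve1 came closest to a call (edgeR adjusted p = 0.0689), with 6.00, 8.02 and 10.9 CPM in wild-type liver and 6.54, 8.79 and 13.1 CPM in knockout liver, lowest in replicate 1 of each. No marker of either list was called, and their part in the pattern of the factors was not tested. What the number stands for is not in the labels.

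**Figure D4:**
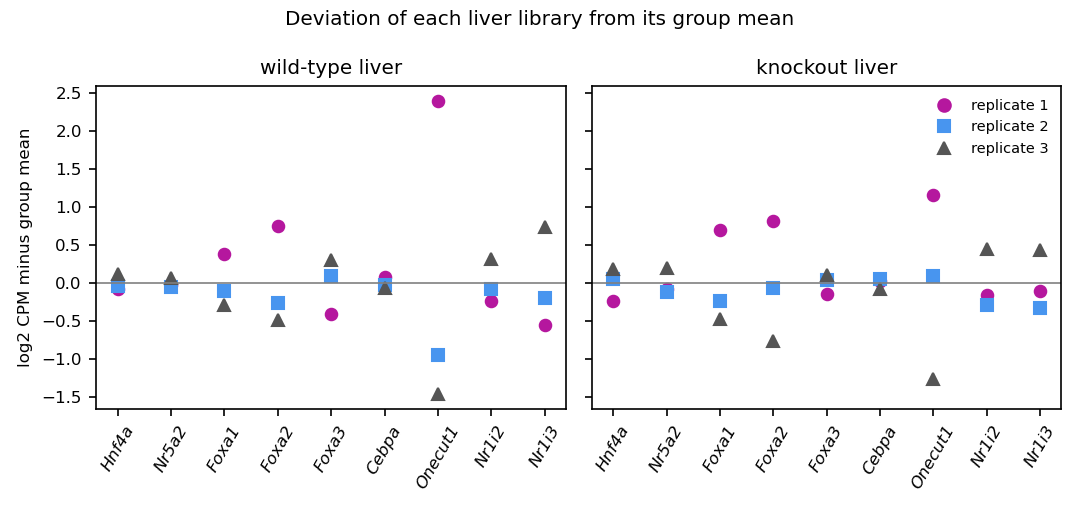
Deviation of each liver library from its group mean in log2 CPM, for wild type (left) and knockout (right), with colour and shape for the replicate number. In both panels replicate 1 lies above the mean for Foxa1, Foxa2, Onecut1 and, by little, Cebpa. It lies below the mean in both for Foxa3, Hnf4a, Nr1i2, Nr1i3 and, by little, Nr5a2. Deviations of Hnf4a, Nr5a2 and Cebpa are all within -0.24 and 0.20.

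Pairs of factors were then compared over the 6 livers, which share genotypes and replicate numbers. The permutations shuffled the 6 livers freely, so their p-values take no account of this sharing. Of 36 pairs, Foxa1 and Foxa2 had a Pearson r of 0.93 (exact permutation p = 0.00556, Spearman rho 0.83, exact permutation p = 0.0583), and r was 0.96 without the 2 libraries farthest from the median. Foxa1 and Onecut1 had r = 0.86 (exact permutation p = 0.00833), with the same rank order in all 6 livers (rho 1, exact permutation p = 0.00278) and r = 0.95 without 2 libraries. Foxa3 and Onecut1 had r = -0.90 (exact permutation p = 0.0111), rho -0.94 (exact permutation p = 0.0167) and r = -0.94 without 2 libraries. Nr1i2 and Nr5a2 had r = 0.93 (exact permutation p = 0.00556), rho 0.83 (exact permutation p = 0.0583) and r = 0.87 without 2 libraries. After adjustment over the 36 pairs none passed, the smallest adjusted permutation p being 0.0917 for Pearson and 0.1 for Spearman.

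Among all 15329 genes, those most like Hnf4a over the 6 livers included Zfp57 (Pearson r = 0.995) and Rpl23a (0.989). Cebpa was matched most closely by Cand1 (0.989), Noxo1 (0.987) and the apolipoprotein gene Apoc4 (0.987), and Nr1i3 by Rhob (0.992), Rab3ip (0.988) and Npm1 (0.987). For Onecut1, looked up after its values were seen, the nearest were Gm15234 (0.994), Zfp809 (0.993) and Gm48582 (0.993). Of the 15329 genes, 177 had r over 0.9 with Hnf4a, 112 with Cebpa, 215 with Nr1i3 and 183 with Onecut1.

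The genes that these factors are known to control were compared in liver in the same fit, and none of any list was called. Of 22 other liver factors, 10 had positive and 12 negative fold changes, with a median of -0.03 on the log2 scale. The homeobox gene Hhex had 113, 116 and 84.7 CPM in the wild type and 213, 158 and 113 CPM in the knockout (log2 fold change 0.63 ± 0.24, edgeR adjusted p = 0.992). Nr0b2, for the repressor SHP, had 35.6, 33.3 and 15.6 CPM in the wild type and 16.7, 15.9 and 17.6 CPM in the knockout (-0.75 ± 0.31, edgeR adjusted p = 0.992). The genotypes overlapped in both genes, which had an unadjusted p under 0.05. The lipid sensor Nr1h3 was at 0.14 ± 0.08 and the fatty acid sensor Ppara at -0.32 ± 0.20.

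Of 23 tested CAR and PXR targets, 6 had positive and 17 negative fold changes, with a median of -0.20 beside 0.01 for all genes. The 6 hepatocyte markers, none of them on that list, lay to the same side in this fit, with 5 negative and a median of -0.18. Their sum was 64408, 51818 and 66914 CPM in wild-type liver and 52510, 41307 and 69419 CPM in knockout liver, lowest in knockout liver 2, and their part in the values of the targets was not tested. Cyp2a5, a coumarin hydroxylase, had 463, 357 and 449 CPM in the wild type and 363, 306 and 305 CPM in the knockout, ranges that overlap (-0.38 ± 0.14, edgeR adjusted p = 0.992). Gsta1, a glutathione transferase, was at -0.63 ± 0.32 from levels of 1.91 to 4.62 CPM. Alas1, the first enzyme of haem synthesis, had 194, 159 and 354 CPM in the wild type and 302, 472 and 466 CPM in the knockout (0.81 ± 0.34, edgeR adjusted p = 0.992). Cyp3a13 was at 0.17 ± 0.17.

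The 18 HNF4A targets lay close to no difference, with 7 positive, 11 negative and a median of -0.07. The clotting factor genes F9 and F11 were at 0.11 ± 0.09 and 0.13 ± 0.12, and Apoh, for a plasma glycoprotein, was at -0.18 ± 0.15. Of 8 NR5A2 targets, 3 were positive and 5 negative (median -0.09). The target with the smallest p was Nr0b2, at the -0.75 ± 0.31 given above, since it stands in both lists. Cyp7a1, the rate-limiting enzyme of bile acid synthesis, was at 0.05 ± 0.55, the lipoprotein receptor gene Scarb1 at 0.04 ± 0.12 and Cyp8b1, the sterol 12-alpha-hydroxylase, at -0.19 ± 0.13. Of 11 FOXA and C/EBP targets, 2 were positive and 9 negative (median -0.11). Igfbp1 was at 0.27 ± 0.97, Pck1 at 0.09 ± 0.48, the urea cycle gene Cps1 at -0.15 ± 0.18 and Alb at -0.19 ± 0.25. The 6 Kupffer cell markers were all positive with a median of 0.60. Their highest sum was in knockout liver 2, and sums overlapped in the other knockout and wild-type livers. The 5 red cell markers were also all positive, with a median of 0.95. Their sums overlapped, at 113, 86.8 and 79.7 CPM in wild-type liver and 118.5, 120 and 103 CPM in knockout liver. Hba-a2 had 2, 4 and 12 counts in wild-type liver, and Alas2 overlapped at 62.6 to 89.8 CPM in wild-type and 76.5 to 91.9 CPM in knockout liver. No marker of either list was called, and their part in the values of the factors and targets was not tested.

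**Figure D5:**
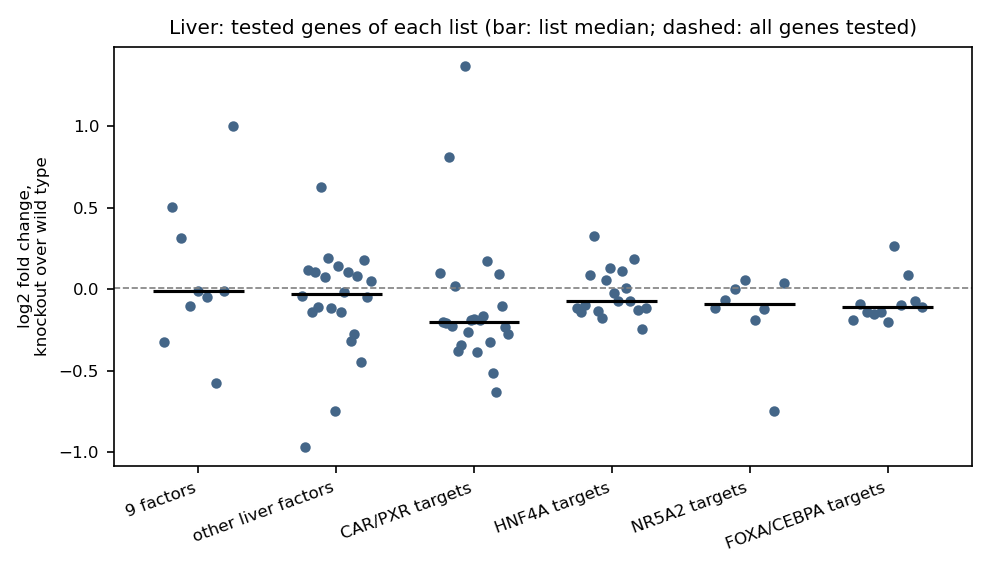
Log2 fold change of knockout over wild-type liver for every tested gene of the 9 factors and of 5 lists, 1 point per gene, with the list median (bar) and the median of all genes tested (dashed). List medians lie between -0.20 for CAR and PXR targets and -0.01 for the 9 factors, and no point was called.

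In brain only Cebpa was high enough to be tested between genotypes. Its levels were 4.51, 6.61 and 4.37 CPM in the wild type and 3.62, 6.08 and 7.02 CPM in the knockout, which overlap. The log2 fold change was 0.12 ± 0.30 (edgeR adjusted p = 1.00), and -0.09 without knockout brain 3. No gene of 18075 was called in brain (0%), and 0.675%, or 122 genes, had an unadjusted p under 0.05. That number moved with single libraries, to 615 without wild-type brain 2, 298 without wild-type brain 1 and 203 without knockout brain 1, and was 406 with the replicate block. The difference between the liver and brain effects, fitted on all 12 libraries, was not called for any of the 9 genes (edgeR adjusted p = 1.00 for each) or for any of 20141 genes (0%). For Cebpa, the member with counts well above the floor in both tissues, that difference was -0.46 ± 0.30 on the log2 scale, and -0.23 without knockout brain 3.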

How the data were processed

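Total RNA from brain and liver (12 libraries, 4 groups of 3) was sequenced. TRIzol RNA was DNase-treated, depleted of ribosomal RNA, made into stranded Illumina libraries by ligation and read single-end, per the labels' protocols. Reads were trimmed with cutadapt and aligned with STAR to mm10, per the submitters' processing notes; the read counter and whether it used strand are not given in the sources used here. What the authors deposited are unnormalized expected counts, of which 5.06% to 5.71% in a library were not whole, so reads shared between genes may have been split. All 55450 identifiers and symbols matched GENCODE M21 (GRCm38), from which coordinates and exon lengths come.

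Counts were rounded and CPM computed on TMM library sizes within each tissue. Tests were robust quasi-likelihood F-tests of edgeR 4.0.16 under R 4.3.3, after filterByExpr (minimum count 10, minimum total 15), fitted on the whole table, with Benjamini-Hochberg adjustment and a threshold of 0.05. Each comparison used its own 6 libraries and the interaction all 12. Correlations used log2 CPM with a prior count of 2. Replicate numbers shared by the genotypes were tried as a block. In liver they were taken to pair the libraries, since same-numbered libraries deviated together from their group means (r = 0.29, 0.28 and 0.35 over 13327 genes). That choice was made from the same counts that the block fit then tested. Alternatives were DESeq2 size factors, library totals, keeping every gene with a count, keeping genes with a mean of at least 1 CPM, non-robust estimation, the DESeq2 1.42.0 test, all 12 libraries in one fit, the block and each library left out; the value of Onecut1 without wild-type liver 1 and the fitted folds between tissues were added after seeing the data.

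The 9 genes and the lists were chosen with earlier results of these data known. Genes named besides them were Vaultrc5; the 2 list genes with the smallest p in each direction in liver; list genes not called, or higher in brain, between wild-type tissues; the 3 genes most like Hnf4a, Cebpa and Nr1i3; and midbrain dopamine markers. Some genes that this rule names are not reported here. Gata4, Gata6, Pck1, Cyp2c55 and the genes most like Onecut1 were added after their values were seen. Of 26 CAR and PXR target names, Ces6 was not found in the table.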

Additional observations from a re-analysis of the deposited data

How the results depend on the processing

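No scaling, filter, block or test turned the direction of any of the 9 genes while all libraries were kept. In liver the number of genes called between genotypes, 0 with edgeR, was 4 with no filter beyond 1 count and 10 with DESeq2, and 0 to 1 with single libraries left out (1 without wild-type liver 2); none of the 9 was ever among them. Leaving out single liver libraries turned the sign of 5 fold changes, among them that of Foxa2, 0.32 with all libraries: Hnf4a ran from -0.11 to 0.10, Foxa2 from -0.20 to 0.79, Foxa3 from -0.28 to 0.059, Nr5a2 from -0.12 to 0.049 and Nr1i2 from -0.31 to 0.125. Brain Cebpa ran from -0.087, without knockout brain 3, to 0.36. For the difference between tissues, DESeq2 called 1 gene, and leave-one-out values ran from -1.06 to 0.61 for Nr1i3, from -2.06 to 0.31 for Foxa2 and from -2.96 to 0.034 for Nr5a2. Under the replicate block, 2 genes were called between genotypes in liver and 2 for the difference between tissues, and the block changed no call of the 9 genes. In brain, same-numbered libraries correlated at 0.58, 0.59 and 0.01 (16715 genes), so the numbers were not taken as pairs there; 0 genes were called with the block. Scaling to library totals moved the median liver-to-brain fold change over all genes from -0.21 to -1.05 in the wild type and from -0.21 to -1.08 in the knockout, with 3997 genes higher and 11635 lower in the wild type; the 9 factors stayed higher. DESeq2 gave no adjusted p for Onecut1 between wild-type tissues and called the other 8.

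The test of the replicate number was the least stable. Against 157 genes and 2 factors called, there were 623 and 4 with no filter, 97 and 1 with the 1 CPM filter, 60 and 1 without robust estimation, 525 and 5 with DESeq2, and 1 factor with DESeq2 size factors; leaving out single libraries gave 22 to 208 genes and 0 to 1 factors. The adjusted p of Foxa1 was 0.0501, 0.0622 and 0.0843 with DESeq2 size factors, the 1 CPM filter and robust estimation off, and 0.0679 to 0.261 with libraries left out; that of Foxa2 was 0.0199 to 0.157 with libraries left out. The adjusted p passed for Nr1i2 (0.00462) and Nr1i3 (0.0287) with no filter, and for Nr1i2 (0.0206), Nr1i3 (0.000475) and Onecut1 (0.00597) with DESeq2. The cause was not tested. In brain, counts at or near 0 limit 8 of the 9 genes.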
